A study of Homo sapiens with 6 samples.

Results

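The 39 autophagy genes examined here were given as a list of symbols, and all 39 were found among the 22413 genes of the deposited table. They fall into 6 roles, which are the ULK1 initiation complex, the class III phosphatidylinositol 3-kinase complex, the effectors of its lipid product with the lipid transfer proteins, the conjugation machinery, the ATG8 proteins and the cargo receptors. The cells were BaF3-T315I, a murine pro-B line, dependent on interleukin-3 in its parental form, stably transfected with T315I-mutated BCR-ABL, the fusion kinase of chronic myeloid leukemia in its imatinib-resistant form. There were 3 control samples and 3 samples treated with 1.1 µM of I13, an indole-3-butyric acid derivative that inhibits histone deacetylases, and per the paper the exposure was 48 h. Both groups carried the same BCR-ABL transgene in the same line, what the control received and for how long is not given in the sources used here, and the labels do not say whether the sequenced samples were separate cultures. The paper's statistics section speaks of independent experiments in general, without naming the sequencing, so that the p-values measure the spread between these samples, part of which may be technical. The labels name the organism as human, while the gene identifiers are those of the mouse. The comparison asks which of these transcripts differed between I13 and control cells.

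Autophagy is the process by which a cell encloses part of its cytoplasm in a newly formed double membrane, the autophagosome, and delivers it to the lysosome for breakdown. It is started by the ULK1 kinase complex, continued by a phosphatidylinositol 3-kinase complex whose lipid product recruits further proteins to the growing membrane, and completed by a ubiquitin-like conjugation system that attaches the small ATG8 proteins (the LC3 and GABARAP families) to that membrane. Cargo receptors bind both the material to be removed and the ATG8 proteins, so that chosen cargo, such as ubiquitinated protein or damaged mitochondria, is taken up. Because many of these proteins are themselves consumed or regulated after translation, the level of their mRNA does not measure the rate of autophagy.

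Expression was given as FPKM, which divides a gene's fragments by gene length and by library size. Levels may be compared between genes of a sample, and only approximately between samples, because the summed FPKM was not equal. It ran from 345115 in I13 replicate 2 to 367952 in control replicate 1. The library totals recovered from the values lay between 16762119 and 17722950 fragments, a narrow range. In bulk RNA, fewer cells of one type and less RNA per cell cannot be told apart. Of 13 pro-B and BaF3 markers looked for, 10 were listed. Csf2rb and Csf2rb2, the beta chains of the interleukin-3 receptor, were abundant, while the pre-B markers Pax5, Ebf1, Igll1 and Vpreb1 had a level of at most 0.11 FPKM in any sample. The other listed markers of this set were present. Over all samples Cd79a had 14.1 to 27.5 FPKM and Cd79b 3.57 to 6.94 FPKM. Ptprc had 10.2 to 15.0 FPKM and Il3ra 9.07 to 18.2 FPKM. The 4 listed T cell markers summed to at most 0.323 FPKM, and Col1a1, the 1 listed fibroblast marker, reached at most 0.130 FPKM. Of the 4 macrophage markers looked for, 3 were listed, and their sum lay between 21.2 and 44.9 FPKM in the control and between 49.0 and 85.2 FPKM after I13, most of it from Adgre1, while Csf1r, which defines that lineage, stayed at or below 0.07 FPKM. The sum of the 4 listed erythroid markers of 5 was 0.633 to 1.27 FPKM in the control and 2.42 to 8.30 FPKM after I13. In the fit with a replicate block described next, Csf2rb, Csf2rb2, Adgre1 and Hba-a1 were called higher after I13. The part of these shifts in the values below was not tested.

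Of the 39 genes, 38 had a mean of at least 0.5 FPKM over all samples and were tested with all 12163 such genes by limma on log2(FPKM + 0.1). Calls needed both an adjusted p under 0.05 and a log2 fold change of 0.58 or more in either direction. None of the 38 autophagy genes was called by limma, where 0.0411% of all genes tested were. At an unadjusted p below 0.05 there were 5 of the 38 (13.2%), against 18.6% of all genes tested, and voom without the block also called 0. Samples of both groups carry the numbers 1 to 3, and these numbers were taken to pair them, although no label states a pairing. With the replicate number as a block, 2 of the 38 (5.26%) were called, Tax1bp1 and Atg3, both higher after I13, where 1.89% of all genes tested were called in either direction. In that fit 10 of the 38 (26.3%) had an unadjusted p below 0.05, against 28.0% of all genes tested. With voom on the recovered fragments and the block, the count was also 2, where 4.14% of all genes were called. By the adjusted p alone, that fit passed 5 of the 38 (13.2%), against 12.4% of all genes, and the other 3 were Wipi2, Atg4d and Gabarapl1, all under the fold change limit.

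As a group the autophagy genes differed little between control and I13. Their log2 fold changes ran from -0.42 to 1.11 with a median of 0.02, against -0.01 for all genes tested, and 21 were higher and 17 lower after I13. The median size of the change, regardless of direction, was 0.14 for the autophagy genes and 0.19 for all genes tested. In 8 of the 38 (21.1%) all I13 values lay on one side of all control values, 3 with higher and 5 with lower values after I13, compared with 25.2% of all genes tested. In 20 of the 38 (52.6%) all 3 pairs of same-numbered samples moved in one direction, compared with 51.5% of all genes tested.

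**Figure D1:**
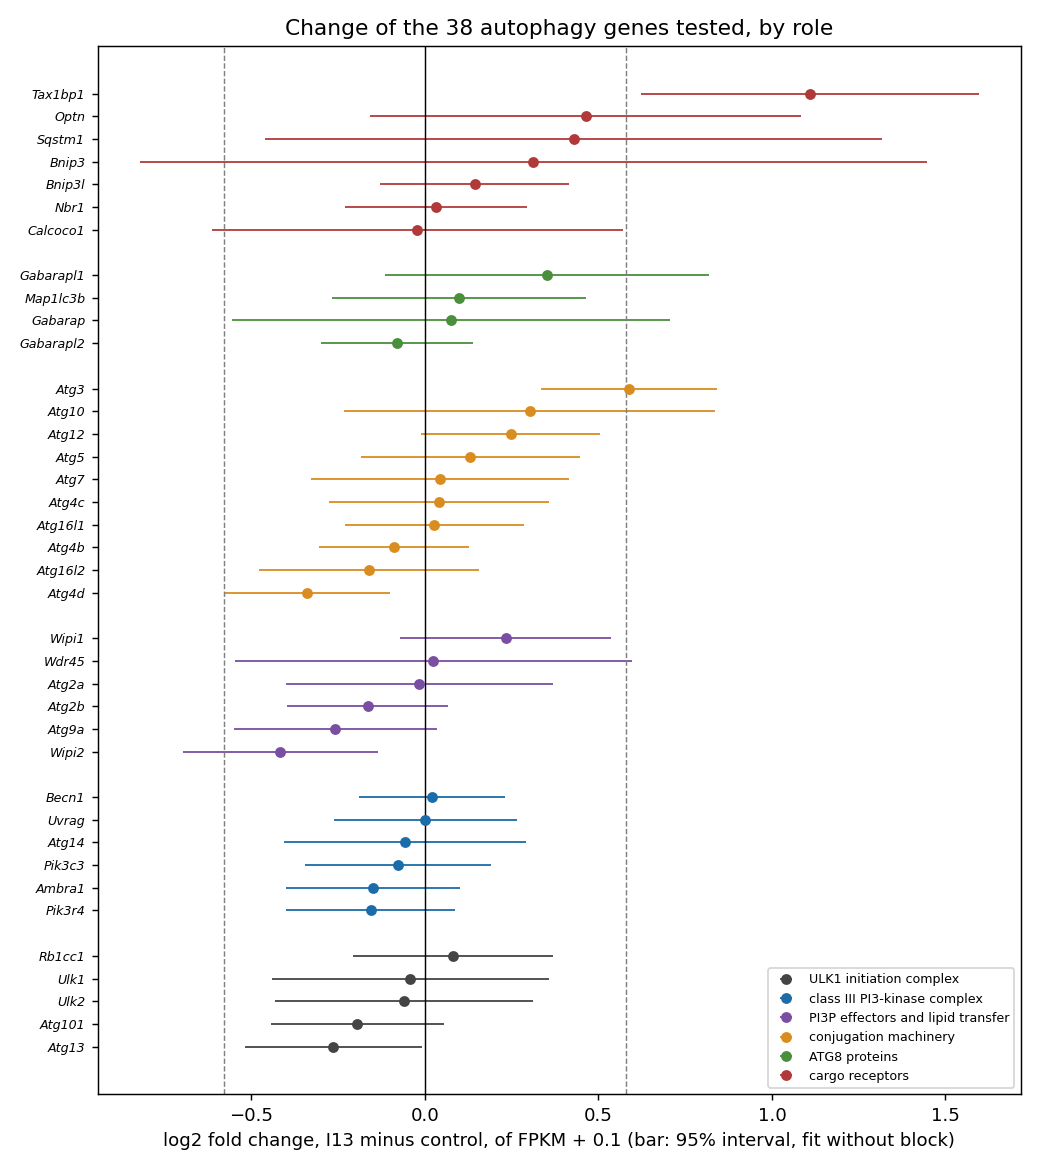
Log2 fold change (I13 minus control, horizontal axis, on the log2(FPKM + 0.1) scale) of the 38 autophagy genes tested, grouped and coloured by role, with 95% intervals from limma without the block and dashed lines at an absolute log2 fold change of 0.58. Tax1bp1 at 1.11 and Atg3 at 0.59 lie farthest to the right of their groups, and the genes of the PI3-kinase complex lie between -0.16 and 0.02.

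The cargo receptors held the largest difference. Tax1bp1 encodes an adaptor that binds ubiquitinated cargo and ATG8 proteins and is also known for restraining inflammatory signaling. It was present at 35.8, 29.1 and 47.4 FPKM in the controls, in the order of their numbers, and at 76.2, 66.7 and 97.8 FPKM in the I13 samples. Every I13 sample lay above every control sample. The mean was 37.4 ± 9.25 FPKM in the control and 80.2 ± 15.9 FPKM after I13 (SD, n = 3 each), and the log2 fold change was 1.11 (limma, standard error 0.21, 95% interval 0.62 to 1.60, adjusted p = 0.104, or 0.0144 when blocked). The log2 differences within pairs 1, 2 and 3 were 1.09, 1.20 and 1.04. These differences were much alike although the controls themselves ranged from 29.1 to 47.4 FPKM. When 1 sample at a time was left out, the log2 fold change ran from 0.94 to 1.29 and the adjusted p from limma was at least 0.12. In the fit with the block the adjusted p was 0.0319 without both samples of replicate 1, 0.209 without those of replicate 2 and 0.0722 without those of replicate 3. Tax1bp1 had the most fragments of all members in each of the 6 samples, from 5122 to 17099.

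Sqstm1, which encodes p62, the best known receptor for ubiquitinated protein aggregates, was the most abundant member, with a mean of 109 FPKM over all samples. It was present at 93.2, 59.96 and 118 FPKM in the controls, in the order of their numbers, and at 90.8, 86.1 and 206 FPKM in the I13 samples. The groups overlapped, and only I13 replicate 3 lay above all controls. Its log2 fold change was 0.43 (limma, standard error 0.38, 95% interval -0.46 to 1.32, adjusted p = 0.575). With the block the 95% interval was 0.03 to 0.82 and the adjusted p from limma was 0.155. Without I13 replicate 3 the log2 fold change of Sqstm1 was 0.02, and without control replicate 2 it was 0.16.

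Bnip3 and Bnip3l encode receptors on the outer mitochondrial membrane that take part in the removal of mitochondria. Bnip3 had 7.77, 4.48 and 10.1 FPKM in the controls and 8.19, 4.74 and 17.5 FPKM after I13. The difference rested on the third pair, since the log2 differences within pairs were 0.07, 0.08 and 0.78, and the log2 fold change of 0.31 (95% interval -0.82 to 1.45) was -0.18 without I13 replicate 3 and -0.01 without control replicate 2. Bnip3l had 15.7, 17.4 and 19.6 FPKM in the controls and 17.6, 20.2 and 20.3 FPKM after I13, with a log2 fold change of 0.14 (95% interval -0.13 to 0.42, adjusted p = 0.537 from limma). A processed pseudogene of it, Bnip3l-ps, is listed beside it, and reads shared by the 2 copies may have been split between them.

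The other receptors did not pass the test. Optn, encoding optineurin, which acts in the removal of mitochondria and bacteria, had 4.16, 3.48 and 6.97 FPKM in the controls and 6.70, 5.28 and 7.64 FPKM after I13. It was higher after I13 within each pair, yet control replicate 3 lay above I13 replicates 1 and 2, and the log2 fold change was 0.46 (limma, standard error 0.26, adjusted p = 0.383, or 0.104 when blocked). Nbr1, a partner of p62, had a log2 fold change of 0.03 (95% interval -0.23 to 0.29). Calcoco1, a receptor for the endoplasmic reticulum, had 10.2 ± 3.12 FPKM in the control and 9.83 ± 2.23 FPKM after I13 (SD, n = 3 each), with a log2 fold change of -0.02 that was 0.01 with the values rescaled to TPM.

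The makeup of the receptor transcripts can be given as shares of their summed FPKM, which takes out what all 7 have in common in a sample. Tax1bp1 made up 20.3%, 21.9% and 20.8% of the sum in the controls and 34.9%, 32.8% and 26.2% after I13. Every I13 sample was above every control. Sqstm1 made up 52.8%, 45.1% and 52.0% in the controls and 41.6%, 42.4% and 55.2% after I13, and these groups overlapped. The share of Calcoco1 was 5.26% to 5.82% in the controls and 3.32% to 4.33% after I13. Shares of one sum are tied to each other, so that a larger share of Tax1bp1 lowers the others, and no test was run on them.

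**Figure D2:**
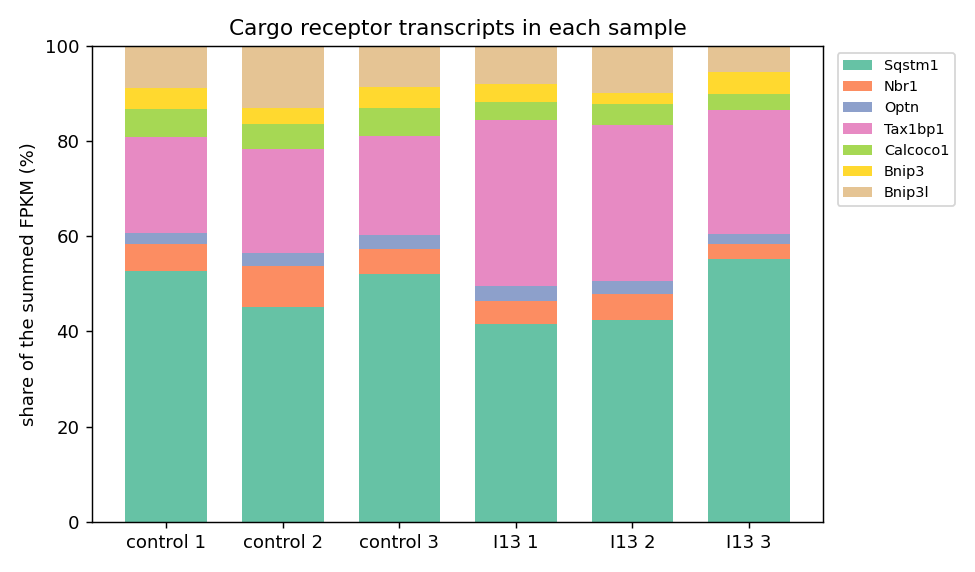
Share of each of the 7 cargo receptor genes in their summed FPKM (vertical axis, percent) in each of the 6 samples (horizontal axis). The segment of Tax1bp1 spans 20.3% to 21.9% in the controls and 26.2% to 34.9% in the I13 samples.

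The conjugation machinery held the other called gene. Atg3 encodes the E2-like enzyme that transfers ATG8 proteins to phosphatidylethanolamine in the membrane. It had 17.7, 16.0 and 16.7 FPKM in the controls and 27.0, 22.2 and 27.0 FPKM after I13, and the groups did not overlap. The mean was 16.8 ± 0.837 FPKM in the control and 25.4 ± 2.74 FPKM after I13 (SD, n = 3 each). For Atg3 the adjusted p from limma was 0.0384 with the block and 0.101 without it. Its log2 fold change of 0.59 (standard error 0.11, 95% interval 0.33 to 0.84) lay just past the limit of 0.58 and ran from 0.54 to 0.68 when 1 sample was left out. It was 0.56 with a pseudocount of 1, and in the blocked fits without replicate 1, 2 or 3 the adjusted p was 0.0724, 0.289 and 0.0939.

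Atg4d was the only other conjugation gene with an unadjusted p below 0.05 without the block. It encodes one of the ATG4 proteases, which trim newly made ATG8 proteins and release them from membranes. It had 5.16, 4.90 and 5.32 FPKM in the controls and 3.87, 4.03 and 4.18 FPKM after I13. All I13 samples lay below all controls, with a log2 fold change of -0.34 (limma, standard error 0.10, 95% interval -0.58 to -0.10, adjusted p = 0.162, or 0.103 when blocked). With voom and the block the adjusted p of Atg4d was 0.0437, under the fold change limit. Atg4b and Atg4c, its paralogs among the members, had log2 fold changes of -0.09 and 0.04. A further paralog, Atg4a, is not a member and belongs to the membrane and lipid factors described below. It was higher after I13 without overlap, with 8.19 to 10.3 FPKM in the controls and 10.8 to 11.9 FPKM after I13. The log2 fold change of Atg4a was 0.26 (limma, adjusted p = 0.281, or 0.124 when blocked).

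The remaining conjugation genes were not called, with or without the block. Atg7, the E1-like enzyme that activates both ubiquitin-like proteins, had 6.07, 6.32 and 7.17 FPKM in the controls and 5.72, 6.30 and 8.35 FPKM after I13. Atg5, which is joined to Atg12, had 14.3, 17.8 and 12.7 FPKM in the controls and 16.8, 16.4 and 15.4 FPKM after I13. Their log2 fold changes were 0.04 (95% interval -0.33 to 0.42) and 0.13 (95% interval -0.19 to 0.45). Atg12 did not overlap between the groups, with 20.4 to 24.3 FPKM in the controls and 24.7 to 29.4 FPKM after I13. Its log2 fold change was 0.25 (limma, adjusted p = 0.283, or 0.141 when blocked). With the block the 95% interval of Atg12 was 0.03 to 0.46. Atg10, the E2-like enzyme of the Atg12 branch, rested on 44 to 77 fragments a sample and had a log2 fold change of 0.30 (95% interval -0.23 to 0.84). Atg16l1, the scaffold that places the Atg12 and Atg5 conjugate on the membrane, had a log2 fold change of 0.03. Its paralog Atg16l2 had lower values after I13 without overlap, 1.92 to 2.10 against 2.18 to 2.36 FPKM, at a log2 fold change of -0.16.

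**Figure D3:**
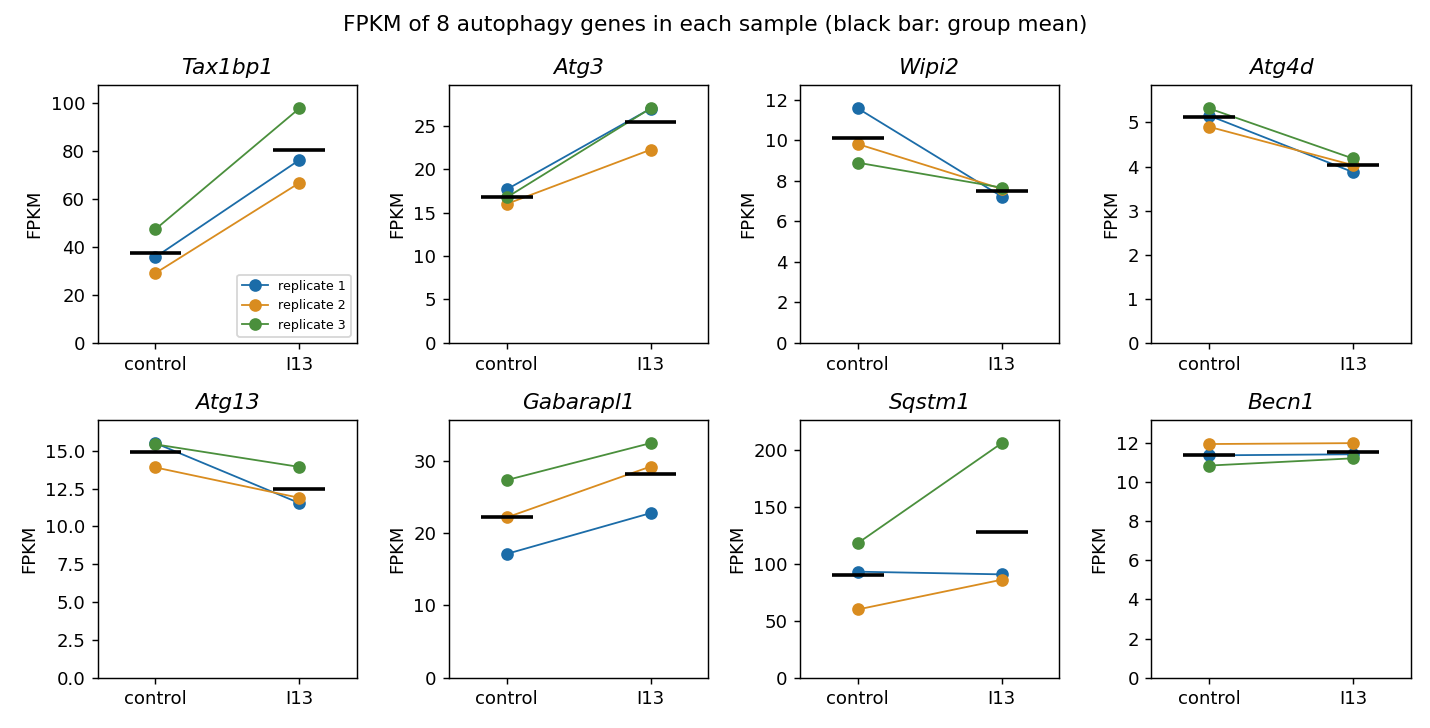
FPKM (vertical axis, from 0) of 8 autophagy genes in the control and I13 samples (horizontal axis), with same-numbered samples joined and coloured by replicate number and black bars at the group means (n = 3 each). The 3 lines of Tax1bp1 run side by side from 29.1 to 47.4 FPKM up to 66.7 to 97.8 FPKM, those of Becn1 are level, and for Sqstm1 the line of replicate 3 stands apart.

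Among the ATG8 genes, Gabarap was the most abundant, with a mean of 88.7 FPKM over all samples, and made up 49.7% to 61.6% of the summed FPKM of the 5 ATG8 genes in every sample. It had 83.7, 65.7 and 107 FPKM in the controls and 77.5, 68.4 and 129.7 FPKM after I13, so that the groups overlapped widely. Map1lc3b, whose product LC3B is the usual marker protein of autophagosomes, had 18.1, 16.9 and 21.5 FPKM in the controls and 17.2, 19.4 and 24.5 FPKM after I13. Its log2 fold change was 0.10 (95% interval -0.27 to 0.46, adjusted p = 0.767 from limma). Gabarapl2 had 23.3, 22.6 and 24.5 FPKM in the controls and 21.8, 20.7 and 24.1 FPKM after I13, with a log2 fold change of -0.08 (95% interval -0.30 to 0.14).

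For Gabarapl1 the I13 sample was above the control of the same number in each pair. It had 17.1, 22.2 and 27.3 FPKM in the controls and 22.8, 29.2 and 32.5 FPKM after I13, and the log2 differences within pairs were 0.41, 0.40 and 0.25. The groups overlapped, and the log2 fold change of 0.35 had an adjusted p of 0.382 from limma and of 0.0653 with the block. With voom and the block the adjusted p of Gabarapl1 was 0.0349, under the fold change limit. Map1lc3a, the LC3A gene, was below the filter and was not tested. It had 2 fragments in control replicate 2, 1 in I13 replicate 1 and 0 in the other 4 samples.

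None of the genes that start autophagosome formation passed the test. In the ULK1 complex, Ulk1, the kinase itself, had 3.52, 3.38 and 4.52 FPKM in the controls and 3.29, 3.40 and 4.402 FPKM after I13. Its log2 fold change was -0.04 (95% interval -0.44 to 0.36). Atg13, its regulatory subunit, had 15.5, 13.9 and 15.4 FPKM in the controls and 11.5, 11.9 and 13.9 FPKM after I13. It was lower after I13 in each pair, and I13 replicate 3 overlapped with control replicate 2. The log2 fold change was -0.26 (limma, standard error 0.11, adjusted p = 0.255, or 0.132 when blocked). Atg101, which stabilizes Atg13, had 29.0 ± 0.861 FPKM in the control and 25.4 ± 3.00 FPKM after I13 (SD, n = 3 each), and its log2 fold change of -0.20 had an adjusted p of 0.364 from limma. The kinase paralog Ulk2 and the scaffold Rb1cc1, also called FIP200, had log2 fold changes of -0.06 and 0.08.

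The 6 genes of the class III phosphatidylinositol 3-kinase complex and its regulators had log2 fold changes from -0.16 to 0.02. Their unadjusted p was above 0.05 both with and without the block. Becn1, the Beclin 1 gene, had 11.4, 12.0 and 10.9 FPKM in the controls and 11.4, 12.0 and 11.2 FPKM after I13, and its log2 fold change of 0.02 had a 95% interval from -0.19 to 0.23. Pik3c3, the lipid kinase, and Pik3r4, its pseudokinase subunit, had log2 fold changes of -0.08 and -0.16. Those of Atg14 and Uvrag, which define alternative forms of the complex, were -0.06 and 0.001, and that of Ambra1, which links the complex to ubiquitin ligases, was -0.15. Pik3r4 was the only gene of the 6 without overlap, with 5.36 to 5.97 FPKM in the controls and 4.83 to 5.25 FPKM after I13.

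Of the proteins that act on the lipid product, Wipi2 binds it and recruits the conjugation scaffold. Its gene had 11.6, 9.81 and 8.89 FPKM in the controls and 7.22, 7.60 and 7.66 FPKM after I13. The I13 samples were close together and below every control, while the controls were spread. The log2 fold change was -0.42 (limma, standard error 0.12, 95% interval -0.70 to -0.14, adjusted p = 0.153, or 0.0947 when blocked), the lowest fold change among the members. With voom and the block the adjusted p of Wipi2 was 0.0295, at a log2 fold change of -0.42 that is under the limit for a call. Its paralog Wipi1 had values of 3.72 to 4.79 FPKM in the controls and 4.59 to 5.13 FPKM after I13, with a log2 fold change of 0.23 (adjusted p = 0.375 from limma). Atg9a, the lipid scramblase of the membrane vesicles that seed the autophagosome, had 10.8, 9.07 and 11.9 FPKM in the controls and 8.61, 8.36 and 9.43 FPKM after I13. It was lower within each pair, with a log2 fold change of -0.26 (limma, adjusted p = 0.313, or 0.136 when blocked). The lipid transfer genes Atg2a and Atg2b had log2 fold changes of -0.02, which was 0.01 on the TPM scale, and -0.17. Atg2b did not overlap between the groups, with 8.83 to 9.47 FPKM in the controls and 7.49 to 8.70 FPKM after I13. Wdr45, the least abundant member tested, had 0.884 ± 0.091 FPKM in the control and 0.905 ± 0.153 FPKM after I13 (SD, n = 3 each).

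The receptor and ATG8 genes shared a feature that did not follow the treatment and that other genes also showed. For all 7 receptor genes and all 4 ATG8 genes tested, replicate 3 was the highest sample of both groups, compared with 16.0% of all genes tested. The same held for 16 of the 38 members in total, including 3 of the 10 conjugation genes, 1 of the 5 ULK1 complex genes, 1 of the 6 effectors of the lipid product and 0 of the 6 PI3-kinase complex genes. It also held for 20 of the 62 tested genes of the other lists described next (32.3%), among them 7 of 14 membrane and lipid factors, 5 of 15 fusion genes, 7 of 16 other receptors and mitophagy genes and 1 of 17 mTORC1 and AMPK genes. Of the sum of squares of a gene's log2(FPKM + 0.1) values, the replicate number took a median of 75.1% in the ATG8 genes and 74.1% in the receptor genes, against 42.2% over all genes tested, while the condition took 15.8%, 15.6% and 25.9%. The replicate number has more levels than the condition, so it takes a larger share on average even where neither has an effect. The share of the replicate number is therefore not directly comparable with that of the condition. In Sqstm1 the condition took 15.6% and the replicate number 74.1%, whereas in Tax1bp1 these were 82.0% and 17.7%. This pattern was noticed in these samples, and genes in the same 6 libraries are not independent of each other. The factors of median-ratio scaling ran from 0.952 to 1.04, with 1.00 for control replicate 3 and the lowest for I13 replicate 3. Adgre1 and Csf2rb were likewise highest in replicate 3 of both groups. What the replicate numbers stand for is not stated, and the source of the pattern was not tested.

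**Figure D4:**
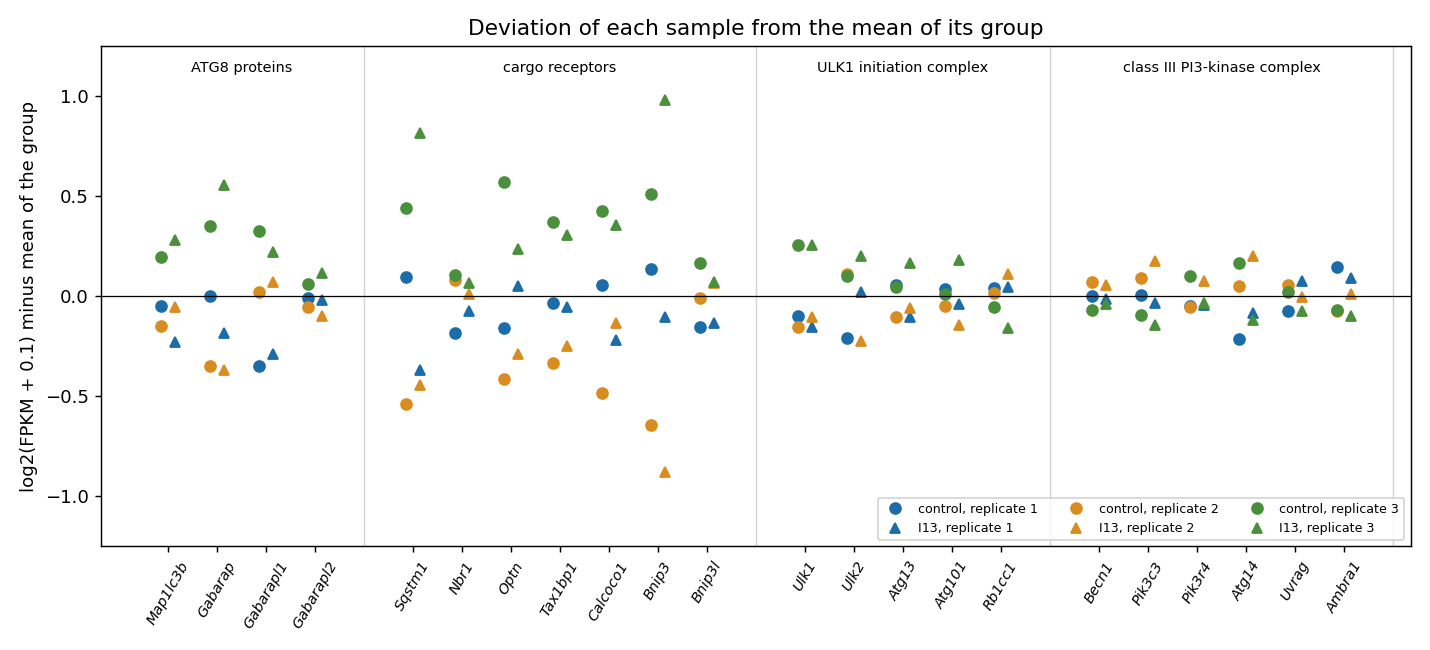
Deviation of each sample from the mean of its own group (vertical axis, log2(FPKM + 0.1)) for 22 autophagy genes of 4 roles (horizontal axis), with circles for control, triangles for I13 and one colour for each replicate number. In the 11 ATG8 and receptor genes the green symbols of replicate 3 are on top in both groups, which holds for 1 of the other 11 genes.

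Further genes of the pathway were taken from 4 lists that hold no member. Of their 71 genes, 66 were listed and 62 were tested. None was called by limma without the block, where 13 (21.0%) had an unadjusted p below 0.05, against 18.6% of all genes tested. With the block 1 of the 62 was called, against 1.89% of all genes. This was Ncoa4, which encodes the receptor for the breakdown of ferritin. Its values were 27.2, 37.3 and 47.1 FPKM in the controls and 49.9, 54.3 and 65.7 FPKM after I13, without overlap, and its log2 fold change was 0.63 (limma, standard error 0.20, adjusted p = 0.182, or 0.0451 when blocked). Without both samples of replicate 1, 2 or 3 the blocked adjusted p of Ncoa4 from limma was 0.0642, 0.304 and 0.0838. The median log2 fold change of the 62 was 0.01.

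In the list of membrane and lipid factors, 14 genes were tested, 8 were higher and 6 lower. Trp53inp1, a p53 target that binds ATG8 proteins, had the largest difference, from 2.36 to 4.32 FPKM in the controls and from 6.78 to 9.002 FPKM after I13. Its log2 fold change of 1.29 had an adjusted p of 0.0989 from limma and of 0.0503 with the block, and it was called with voom and the block. Zfyve1, whose product DFCP1 marks the membranes from which autophagosomes arise, was lower after I13 with a log2 fold change of -0.46 and an adjusted p of 0.0498 in the limma fit with the block, under the fold change limit.

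Of the 15 genes for fusion of the autophagosome with the lysosome, 7 were higher and 8 lower. Without the block 4 (26.7%) had an unadjusted p below 0.05 in limma, against 18.6% of all genes tested. With the block the count was also 4 (26.7%), against 28.0% of all genes tested. The share without the block was 14.3% for membrane and lipid factors, 18.8% for other receptors and mitophagy and 23.5% for mTORC1 and AMPK. Snap29, a SNARE of that fusion, had a log2 fold change of 0.47 (limma, adjusted p = 0.165, or 0.0567 when blocked). Vps16, a subunit of the tethering complexes, had a log2 fold change of -0.30 (limma, adjusted p = 0.14, or 0.0775 when blocked). Of the 16 genes tested for other receptors and mitophagy, 10 were higher and 6 lower, and the gene with the lowest p without the block was Nipsnap2, which encodes a mitochondrial protein and is listed as Gbas, with a log2 fold change of -0.35.

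The inputs from mTORC1, the kinase complex that holds back ULK1, and from AMPK, which activates it, were represented by 17 tested genes, of which 7 were higher and 10 lower. Rptor, the substrate-binding subunit of mTORC1, had 6.40 ± 0.0682 FPKM in the control and 4.84 ± 0.281 FPKM after I13 (SD, n = 3 each), which gave a log2 fold change of -0.40 (limma, adjusted p = 0.123, or 0.0776 when blocked). Tsc2, which restrains the same complex, had a log2 fold change of -0.33 (limma, adjusted p = 0.137, or 0.0725 when blocked). In both genes all I13 samples lay below all controls, and neither passed the test in limma. With voom and the block, all 8 genes named from these lists by their p had an adjusted p below 0.05, against 12.4% of all genes. The 8 were named for their low p in these same samples, so this count adds no separate evidence. Those other than Ncoa4 and Trp53inp1 were under the fold change limit. That fit called 3 genes of these lists in total, including a gene outside the 8 named.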

How the data were processed

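The authors deposited FPKM values of 22413 mouse genes in 6 samples, from stranded mRNA libraries. Per the submitters' processing notes, Trimmomatic, HISAT2, Cufflinks and HTSeq were used with hg38, a human build, and the strand setting is not given in the sources used here, so overlapping antisense genes cannot be told apart. Whole fragments and gene lengths were recovered within 0.001 fragments for 22412 genes.

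FPKM values were taken to log2 after adding 0.1, which understates changes of low genes, and fitted with limma 3.58.1 in R 4.3.3 (eBayes with a trend, mean FPKM of at least 0.5, Benjamini-Hochberg adjustment over 12163 genes). The fit was tested on simulated data that held no replicate effect, so this does not show how either fit does where replicates differ. Deviations from the group means correlated across genes at 0.145, 0.301 and 0.219 for samples of equal number and at -0.258 to 0.05 otherwise. On this basis the numbers in the labels were taken as pairs. Deviations cancel within a group, so these correlations are tied to each other. They come from the same samples as the fits, and no label states a pairing.

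The members, lists and tests were chosen with earlier results of these data known. Sample values are given for 11 members fixed by name and for those with an unadjusted p below 0.05, or an adjusted p below 0.05 with the block. Those of Gabarap, Gabarapl1 and Optn, ranges of non-overlapping members and the count for replicate 3 were chosen after the values were seen. From each other list the 2 genes of lowest p and any with an adjusted p below 0.05 are named. Atg4a is given in addition, as a paralog of Atg4d, and was chosen after the values were seen. Alternatives were other pseudocounts, filters and scalings, eBayes without a trend, voom on recovered fragments, the block, and leaving out each sample. Leaving out each pair was chosen after seeing the data.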

Additional observations from a re-analysis of the deposited data

How the results depend on the processing

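The calls depended mainly on the replicate block. In limma over all genes tested, 4 were elevated and 1 decreased without the replicate block, and 166 and 64 with it. Of the members 2 were then elevated against 0, and of the other lists 1 against 0. With voom and the block these counts were 375, 128, 2 and 3. In the blocked fit without the pair of replicate 1, 78 genes were elevated, 5 were decreased and 1 member was called, and without the pair of replicate 2 or 3 there were 0 calls in either direction (with 1638 and 3160 genes whose unadjusted p was below 0.05). The block in limma added Tax1bp1 and Atg3 of the members, Ncoa4 of the other lists, and the markers Csf2rb, Csf2rb2, Adgre1 and Hba-a1 to the calls. Without the block, a pseudocount of 0.01 and median-ratio scaling each gave 2 elevated and 0 decreased genes, and no filter and eBayes without a trend each gave 3 decreased genes. When limma was run with 1 sample left out, elevated genes numbered 0 to 0 and decreased genes 0 to 0, while between 1478 and 2482 had an unadjusted p below 0.05. The cause was not tested.

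Of 873 comparisons of 46 single genes with an alternative, 820 kept direction and call, 8 gained a call and 45 changed sign, in 15 genes that were not called. With TPM, the log2 fold change was 0.012 for Atg2a and 0.0074 for Calcoco1. In the blocked fits without a pair, those that changed sign were 0.11 for Ulk2, 0.085 for Atg14, -0.075 for Uvrag, -0.13 for Wdr45, 0.18 for Atg2a, -0.044 for Atg7, -0.042 for Atg16l1, -0.026 for Gabarap, -0.023 for Nbr1, and 0.12 and 0.014 for Calcoco1. With 1 sample left out, the log2 fold change ran from -0.17 to 0.085 for Ulk1, from -0.16 to 0.052 for Ulk2, from -0.014 to 0.055 for Becn1, from -0.17 to 0.026 for Atg14, from -0.037 to 0.038 for Uvrag, from -0.097 to 0.10 for Wdr45, from -0.15 to 0.13 for Atg2a, from -0.023 to 0.099 for Atg4c, from -0.11 to 0.16 for Atg7, from -0.041 to 0.088 for Atg16l1, from -0.043 to 0.21 for Map1lc3b, from -0.20 to 0.26 for Gabarap, from -0.060 to 0.085 for Nbr1, from -0.26 to 0.19 for Calcoco1 and from -0.18 to 0.75 for Bnip3. Depth limited Atg10 and Wdr45, with at most 77 fragments a sample, and Map1lc3a could not be judged.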
